A study of Mus musculus with 2 samples.

Results

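The replication-dependent histone genes were examined in polyA-selected RNA of Dicer_KO mESCs. They were taken as the protein-coding genes of the GENCODE M21 annotation (GRCm38) whose symbol starts with Hist1h, Hist2h, Hist3h or Hist4h. The annotation holds 67 such genes, of which 64 had a row among the 43629 genes counted, and Hist2h2bb, Hist1h2bm and Hist1h2bh were not analysed here. The 64 genes comprised 18 of H2A, 15 of H2B, 12 of H3 and 13 of H4, the core histones, together with 6 of the linker histone H1, which the symbols take in although it lies outside the core particle. Genes with 0 counts were kept.

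The series has 1 group of 2 libraries, Dicer_KO replicate 1 at passage 7 and replicate 2 at passage 4, both mouse embryonic stem cells of 129/Ola background with the genotype Dicer knockout. The lines were made from E14TG2a, a feeder-independent mESC line, by deleting part of Dicer1 with paired CRISPR/Cas9 guides and sorting single cells, so that each line descends from 1 cell. The cells were kept in serum and LIF, and the labels do not name the deletion of each library. Libraries of WT mESCs were not analysed here, so no comparison with WT was made, and differences between the libraries cannot be told apart from line or passage.

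The bulk of histone protein is made during S phase from genes that lie in clusters, have mostly no introns and exist in many near-identical copies. Their mRNAs are the only animal mRNAs known to end, as a rule, without a polyA tail. In place of the tail they carry a short stem-loop behind the stop codon, which is bound by the protein SLBP, and the pre-mRNA is cut just behind it with the help of the U7 small nuclear ribonucleoprotein. Some of these genes can also be cleaved at an ordinary polyA signal further downstream, which gives a polyadenylated transcript. Replication-independent variants such as H3.3 come from separate genes with ordinary polyadenylated mRNAs. Selection on polyA therefore bears directly on which histone transcripts a library can hold.

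The stem-loop was looked for in the annotated transcripts, because it is the element that sets these mRNAs apart. It was defined as 16 bases that start with GG and end with CC, hold T at the 6th and A at the 11th place, and whose outer 6 bases on each side pair with each other, G with T allowed, on the sense strand within 150 bases after the stop codon. At least 16 bases after the stop codon were annotated for 50 of the 64 genes, and 44 of these (88.0%) held the element. Among 20557 other protein-coding genes, 54 did (0.263%). It began between 22 and 59 bases after the stop codon, with a median of 32.5. The 14 other genes have coding sequence annotated with next to nothing behind it, so they could not be searched.

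The element took 8 forms in the 44 genes. The most frequent was found in 24 genes of H1, H2A, H2B and H3, and a second form in 7 genes, all of H4. The sequences below, from the GENCODE M21 transcripts, show it for 5 genes described further on, with the stem-loop in capitals and 5 bases on either side. The stem-loop of Hist1h1c lies at chr13:23739512-23739527 on the plus strand of GRCm38, that of Hist1h4i at chr13:22040966-22040981 on the minus strand, that of Hist3h2a at chr11:58955172-58955187 on the plus strand, that of Hist1h2bb at chr13:23747203-23747218 on the plus strand and that of Hist1h4j at chr13:21735437-21735452 on the plus strand.
Hist1h1c: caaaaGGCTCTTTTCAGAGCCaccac
Hist3h2a: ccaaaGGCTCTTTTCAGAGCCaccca
Hist1h2bb: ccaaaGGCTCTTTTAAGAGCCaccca
Hist1h4i: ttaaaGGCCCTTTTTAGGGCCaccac
Hist1h4j: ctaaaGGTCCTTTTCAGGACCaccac
Hist1h1c and Hist3h2a carry the most frequent form, and Hist1h2bb a form found in 6 genes. The forms of Hist1h4i and Hist1h4j were each found in 2 genes, all of H4.

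Many of the annotated transcripts do not stop at the stem-loop. In 22 of the 44 genes the transcript that holds the stem-loop ran on for more than 100 bases past it, and in the other 22 that transcript ended nearer. A polyA signal, AATAAA or ATTAAA, was present in the last 50 bases of a transcript of 17 of the 50 searchable genes, against 81.0% of the 20557 other protein-coding genes. Any annotated coding transcript of a gene sufficed. Most of the 50 genes have a single annotated transcript, and the number in other genes was not compared. The signals below are those of 4 genes with comparatively many counts, with the signal in capitals and 10 bases on either side. They lie at chr13:23740332-23740357 (plus strand) for Hist1h1c, at chr13:22040641-22040666 (minus strand) for Hist1h4i, at chr11:58956787-58956812 (plus strand) for Hist3h2a and at chr13:23692452-23692477 (plus strand) for Hist1h2bc.
Hist1h1c: gtatgcttctAATAAAaagcgtttag
Hist1h4i: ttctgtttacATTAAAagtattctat
Hist3h2a: gtatatgcccAATAAAataagagtac
Hist1h2bc: atgtatatatAATAAAtgtcatgtaa
In the first 3 genes the signal starts 26, 21 and 34 bases before the annotated end of the transcript. In Hist1h2bc it starts 447 bases before that end. These matches describe the annotated sequence and do not show which end was used in the cells.

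**Figure D1:**
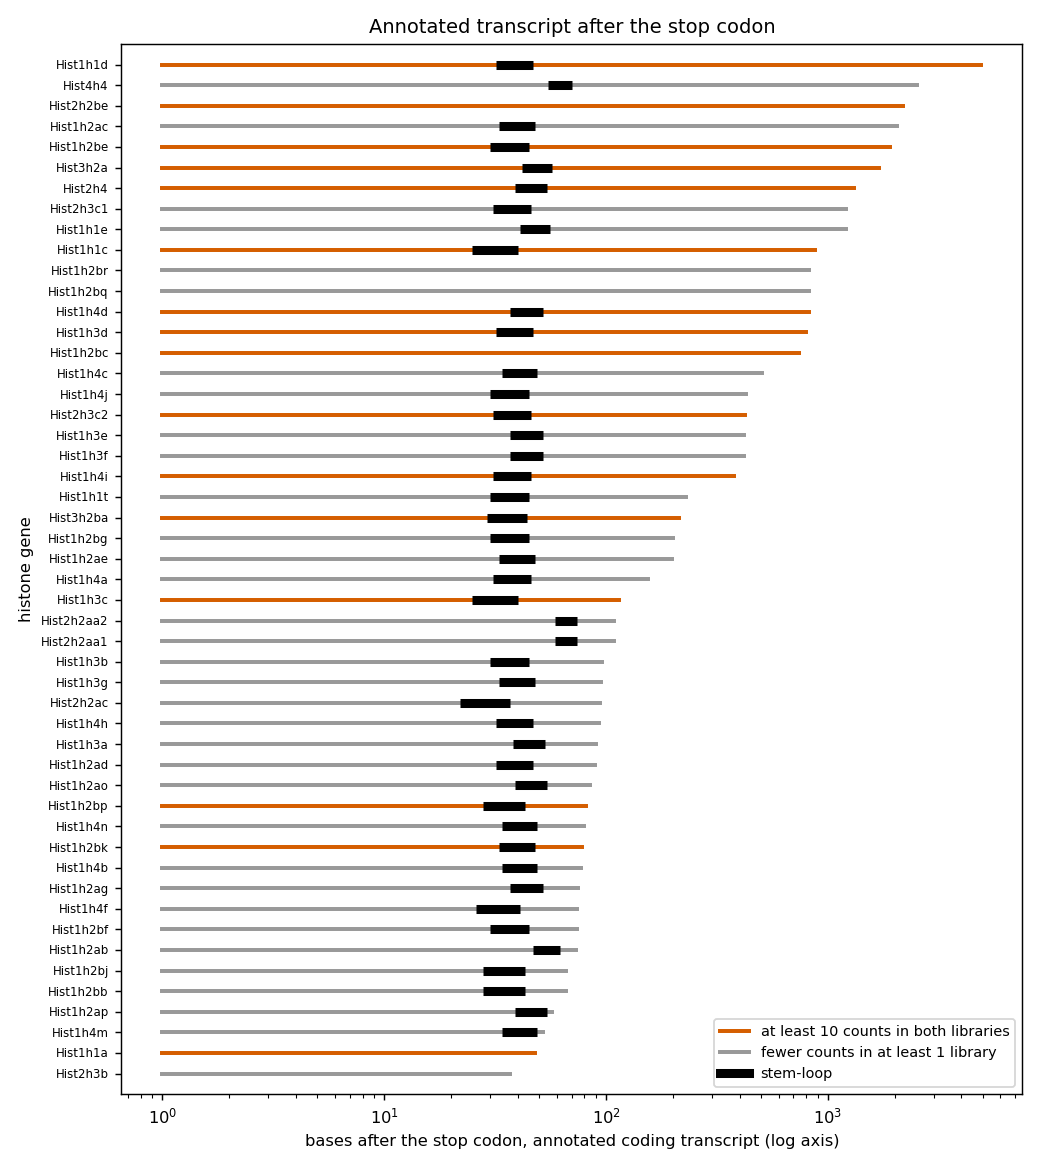
Each line is the annotated coding transcript behind the stop codon of 1 of the 50 searchable histone genes, with bases after the stop codon on a log axis and the stem-loop as a black block; where transcripts differ, the one with the stem-loop is drawn, otherwise the longest. Orange lines are genes with at least 10 counts in both libraries and grey lines the rest; most orange lines are long ones that run far past the block.

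The files gave 41710122 counts on genes for replicate 1 and 41566184 for replicate 2. Dicer1, the targeted gene, had 1343 and 1510 counts, a sum over the whole gene that does not show whether the deleted stretch is transcribed. All 8 mESC markers examined (Pou5f1, Sox2, Nanog, Zfp42, Esrrb, Klf4, Dppa5a and Utf1) had at least 2562 counts in each library. Of 6 fibroblast markers, Thy1 had 823 and 621 counts, Pdgfrb 285 and 91, Col1a1 20 and 18, and Col1a2 6 and 1, while Col3a1 had 1 and 0 and Postn 0 and 0. Of 4 trophectoderm markers, Krt7 had 2674 and 44 counts, Eomes 334 and 151, Elf5 70 and 11, and Cdx2 6 and 1. Of 5 primitive endoderm markers, Gata4 had 586 and 318 counts, Gata6 16 and 5, Sox17 14 and 10, Sox7 7 and 4, and Afp 4 and 0. Summed levels of markers of other cell types were higher in replicate 1, at 73.9 against 4.98 CPM (counts per 1000000 counts on genes) for the trophectoderm list, at 27.2 against 17.6 CPM for the fibroblast list and at 15.03 against 8.11 CPM for the primitive endoderm list. Their part in the results below was not tested. Of 5 germline and testis markers, 4 were at 0 in both libraries, and Pgk2 had 0 and 6 counts.

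Histone genes took a very small share of these polyA libraries. Together the 64 genes had 1184 counts in replicate 1 and 1532 in replicate 2, which is 0.00284% of all counts (exact 95% interval 0.00268 to 0.00301%) and 0.00369% (0.00350 to 0.00388%). On the CPM scale this was 32.6 ± 5.99 for the whole family (SD, n = 2). The family as a whole was thus near the level of the single gene Dicer1, at 34.3 ± 2.92 CPM (SD, n = 2). Intervals given here and below cover counting error only.

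Few of the genes were detected well. At least 10 counts in both libraries were found for 16 of the 64 genes, against 65.2% of the 21474 protein-coding genes counted. Replicate 1 alone had 16 genes with at least 10 counts and replicate 2 had 22. Another 29 genes had 1 to 9 counts in both libraries, 5 were at 0 in 1 library, and 8 were at 0 in both (18.2% of all protein-coding genes were). The median gene of the family had 0.0961 CPM, little above the 0.0719 and 0.0722 CPM that 3 counts represent in these libraries. These 3 counts are the floor taken for a count of 0, a one-sided limit, and the upper bound of the exact 95% interval with both sides of a single gene at 0 is 0.0884 and 0.0888 CPM.

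**Figure D2:**
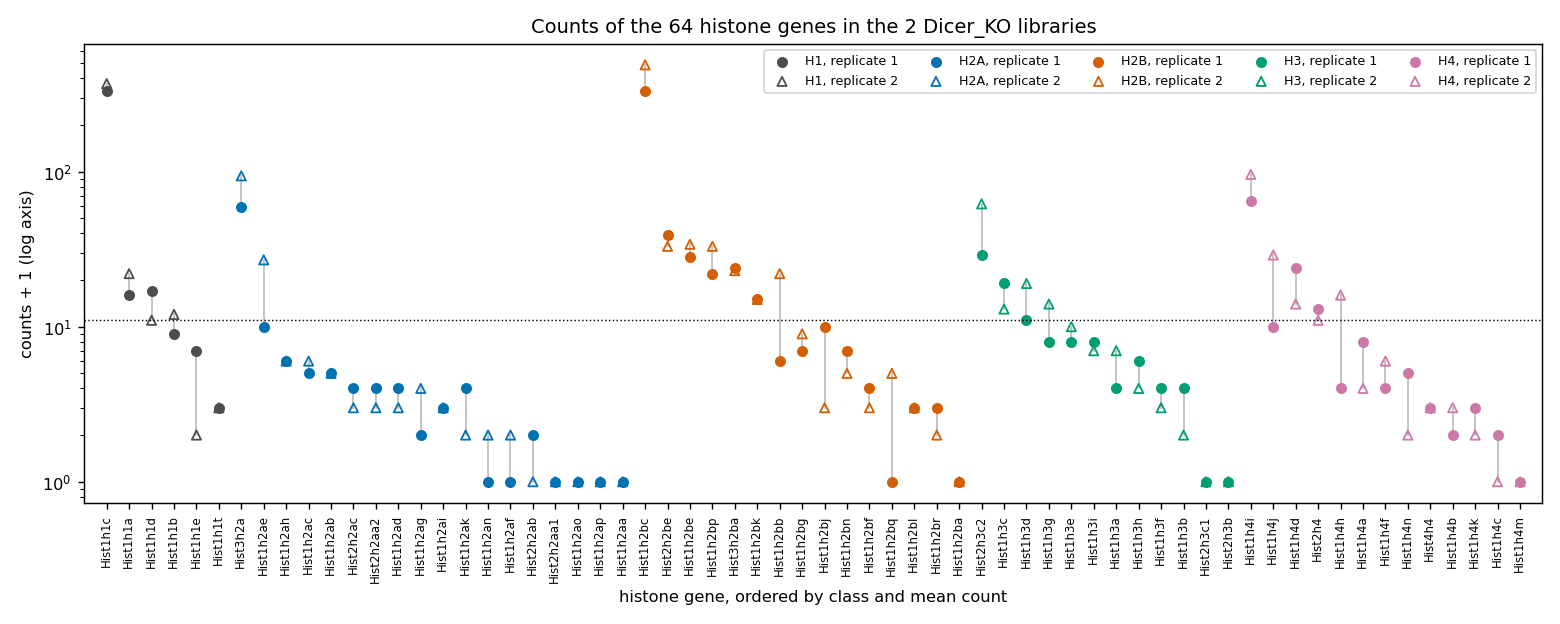
Counts plus 1 (log axis) of each of the 64 histone genes, with filled circles for replicate 1, open triangles for replicate 2, colour for the class, and a dotted line at 10 counts. Hist1h2bc and Hist1h1c, with 331 to 488 counts, stand above all other genes, and 16 genes lie on or above the line in both libraries.

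A pair of genes, Hist1h2bc and Hist1h1c, gave most of the family's counts. They held 56.0% of them in replicate 1 and 55.9% in replicate 2. Hist1h2bc (ENSMUSG00000018102, chr13:23684199-23692908, plus strand) encodes an H2B protein. It had 331 counts in replicate 1, or 7.94 CPM (exact 95% interval 7.10 to 8.84), and 488 in replicate 2, or 11.7 CPM (10.7 to 12.8). The transcript annotated for it is unlike that of most of the family, since it is spliced 9 bases after the stop codon to an exon several kilobases downstream. Those 9 bases end before the place at which the stem-loop begins in any of the 44 genes that have one, and no stem-loop was found in the 150 bases searched. Only 5 of the 64 genes have an annotated transcript with more than 1 exon.

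Hist1h1c (ENSMUSG00000036181, chr13:23738808-23740367, plus strand) encodes a linker histone of the H1 class. It had 332 counts in replicate 1, or 7.96 CPM (7.13 to 8.86), and 369 in replicate 2, or 8.88 CPM (7.995 to 9.83). Its single exon carries the stem-loop at 25 bases after the stop codon and runs on for 840 bases behind it, past the polyA signal shown above. In replicate 1 its count was practically that of Hist1h2bc, and in replicate 2 it was lower.

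The next genes in order of level lay several-fold below these. Hist1h4i, a gene of H4, had 64 and 95 counts, and Hist3h2a, a gene of H2A, had 58 and 93. Hist2h3c2, a gene of H3, had 28 and 61 counts. Each of these leads its own class, and each has an annotated transcript that runs past the stem-loop. Of the H3 gene, 61.6% of all 100-base words occur in transcripts of other genes as well, so that its count rests on the remainder and on how reads with several alignments were treated, which is not given in the sources used here. Hist3h2a overlaps other annotated genes over 33.0% of its exonic bases, and reads on overlapping regions were left out of the counts.

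Another 7 genes complete the 12 with the most counts. Hist2h2be had 38 and 32 counts, Hist1h2be 27 and 33, and Hist1h2bp 21 and 32, all genes of H2B. Hist3h2ba, also of H2B, had 23 and 22 counts. Hist1h4j and Hist1h4d, of H4, had 9 and 28 and 23 and 13 counts, and Hist1h1a, of H1, had 15 and 21. Hist2h2be has 2192 annotated bases after the stop codon, and the first 150 held no stem-loop as defined here, while in Hist1h1a the 48 annotated bases held none. A polyA signal lies in the last 50 bases of the transcript of Hist2h2be, and none was found behind the stop codon of Hist1h1a.

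By class, H2B had the highest summed level, at 13.8 ± 3.06 CPM (SD, n = 2), followed by H1 at 9.52 ± 0.618 CPM. H4 had 3.68 ± 0.756 CPM, H2A 2.92 ± 0.873 CPM and H3 2.67 ± 0.686 CPM, and the ranges of these 3 over the libraries overlapped. The core histones enter the nucleosome in equal numbers, and their summed levels here were uneven, with H2B above the other core classes in both libraries. This lead rested on 1 gene, since the 14 H2B genes other than Hist1h2bc had 156 and 177 counts, or 3.999 ± 0.366 CPM (SD, n = 2), a range that overlapped that of H4. By cluster, the 52 genes of Hist1 on chromosome 13 held 85.8% and 85.4% of the family's counts, the 9 of Hist2 on chromosome 3 held 7.18% and 6.98%, the 2 of Hist3 on chromosome 11 held 6.84% and 7.51%, and Hist4h4 on chromosome 6 had 2 counts in each library.

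The 3 genes known from testis were at or near 0. Hist1h2aa and Hist1h2ba, which form a testis pair of H2A and H2B, had 0 counts in both libraries, and Hist1h1t, the testis H1, had 2 and 2. Of the 8 genes at 0 in both libraries, 6 share over 50% of their 100-base words with other genes, among them Hist2h2aa1, Hist2h3c1 and Hist2h3b, in which all words are shared. Genes annotated over the same bases count as other genes here, so shared words need not mean a second copy. The other 2 are Hist1h2aa, at 10.3%, and Hist1h2ba, at 27.4%. In the annotation used here, other genes on the same strand overlap 100% of the exonic bases of Hist2h3c1. For Hist2h2aa1 this share is 90.3%. Reads on overlapping regions were left out of the counts, so a count of 0 says little about the level of Hist2h3c1 and Hist2h2aa1. Hist2h3b is overlapped over 100% of its exonic bases on the opposite strand only. The strand setting of the counting is not given, so its count of 0 may say as little. Over the family, 27 genes share over 50% of these words and held 7.86% and 7.83% of the counts, while the 37 others held 92.2% and 92.2%.

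Counts were then set against the annotated 3′ end. Of the 22 genes whose transcript runs more than 100 bases past the stem-loop, 10 had at least 10 counts in both libraries. The 22 genes held 54.8% and 52.9% of the family's counts, of which Hist1h1c alone gave 28.0% and 24.1%. Of the 22 that end nearer, 3 passed this level, and they held 9.12% and 9.07%. The grouping follows the transcript that holds the stem-loop. Hist1h2bp, placed here with 21 and 32 counts, has another annotated transcript without the stem-loop. In that transcript a polyA signal starts 23 bases before the annotated end. The 6 searched genes without the element in an annotated transcript held 32.6% and 35.6%, most of it from Hist1h2bc, and 3 of them passed. Genomic sequence outside the annotated transcripts was not searched. None of the 14 genes with no annotated sequence to search did. The median exonic length was 1194 bases for the genes that run on and 483.5 for those that end nearer. Per length, the median level was 0.226 CPM per kb of exon in the former and 0.135 in the latter, with 0.172 in the genes without the element and 0.122 in those not searched. The genes that run on were thus longer and had the highest median level per length. The median gene had 0.0600 CPM among those that end nearer and 0.0480 CPM among those not searched. Both lie below the 0.0719 CPM that 3 counts represent, so the order of these medians rests on very few counts. No test was made, since genes that share sequence are not independent.

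Genes of H2A and H2B often lie head to head and share the stretch of DNA between their start sites. Such pairs numbered 12 here, with 175 to 305 bases between them. In 6 pairs the H2B gene had more counts than its H2A partner in both libraries, in 1 pair the H2A gene did, and in 5 neither held in both. Hist1h2bc had 331 and 488 counts, while its partner Hist1h2ac, 250 bases away on the opposite strand, had 4 and 5. Hist2h2be had 38 and 32 counts, against 3 and 2 of Hist2h2ac. The exception was Hist1h2ae, at 9 and 26 counts, against 6 and 8 of Hist1h2bg. In 7 of the 12 pairs no gene reached 10 counts, so the order within them says little. Other annotated genes overlap the exons of all 12 H2A genes, from 9.91% of bases in Hist1h2ac to 35.9% in Hist1h2an. This overlap lies mostly on the opposite strand, and no H2B partner has any. Reads on overlapping regions were left out and the strand setting is not given, so H2A counts may be lowered. The part of this overlap in the order within pairs was not tested.

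Genes of histone variants outside the replication-dependent clusters, most of them replication-independent, were present in these libraries in quantity. The 11 genes examined had 59694 and 51190 counts in all, or 50.4 and 33.4 times those of the 64 replication-dependent genes. H3f3b and H3f3a, which encode the H3.3 protein deposited outside S phase, had 23056 and 22555 counts and 5371 and 6084 counts. H2afx, whose protein is phosphorylated at DNA breaks, had 9179 and 7694. It is known to make both a stem-loop mRNA tied to replication and a polyadenylated one, and of the 11 genes it alone held the stem-loop, at 47 bases after the stop codon, in a transcript that runs on for 822 bases behind it. Without H2afx the other 10 genes had 50515 and 43496 counts, or 42.7 and 28.4 times those of the 64 genes. H2afz and H2afv, the genes of H2A.Z, had 3044 and 2462 and 3643 and 2261. The macroH2A gene H2afy had 7167 and 4020 counts, and Cenpa, the H3 variant of centromeres, had 2837 and 3300. H1f0, a linker variant, had 3732 and 1796. Fewer counts were found for H2afj, at 479 and 456, H1fx, at 508 and 307, and H2afy2, at 678 and 255.

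The same order held per length. The median of the 11 variants was 32.3 CPM per kb and that of the 64 genes 0.151 CPM per kb, where all protein-coding genes with at least 10 counts in both libraries had a median of 5.62 CPM per kb. H3f3b had the highest level, at 184.0 CPM per kb. Hist1h2bc, at 8.51 ± 2.33 CPM per kb (SD, n = 2), exceeded 60.5% of those protein-coding genes, and Hist1h1c, at 5.40 ± 0.416, exceeded 49.1% of them. Of the 64 genes, only these 2 lay above the lowest variant, H2afy2, at 5.15 CPM per kb, and 8 of the 11 variants lay above Hist1h2bc. Next among the family was Hist1h4i, at 2.63 ± 0.731 CPM per kb.

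**Figure D3:**
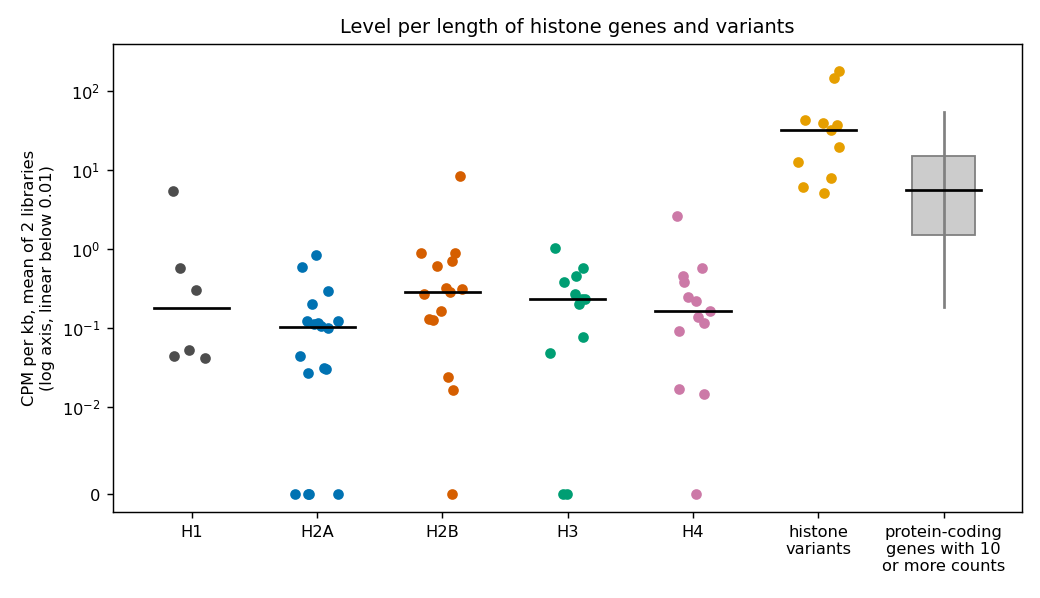
Each point is 1 gene, at its mean CPM per kb of exon over the 2 libraries (log axis, linear below 0.01), with black bars at group medians. The grey box spans the quartiles and its line the 5th to 95th percentile of protein-coding genes with at least 10 counts in both libraries; all but 2 of the 64 histone genes lie below the 11 variants, H2afx included.

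Other RNAs that end without a polyA tail also had few counts in all. Of 10 such RNAs, Rn7sk, the RNA of the 7SK particle, had 185 and 154 counts, and 3 reached 10 counts in both libraries. Their summed level was 6.76 CPM in replicate 1 and 5.05 in replicate 2, so it was higher in the library in which the histone genes were lower. These RNAs are short, and their median level was 0.863 CPM per kb, against 0.151 for the 64 histone genes. Only 4 of the 10 averaged at least 10 counts, so both medians rest on few counts. Rn7sk, at 12.3 CPM per kb, lay above all 64, of which the highest was at 8.51. Genes annotated as snRNA had 14.1 and 17.4 CPM in all, and those annotated as snoRNA, which lie mostly in introns of other genes, had 193 and 257 CPM. The scaRNA genes had 1.85 and 5.05 CPM and the rRNA genes 2.95 and 5.68 CPM. These 4 sums were lower in replicate 1, as was that of the histone genes, and their part in it was not tested.

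Between the libraries, histone counts were lower in replicate 1 as a whole. After TMM scaling, the summed count of replicate 1 was 0.710 times that of replicate 2 (exact 95% interval 0.658 to 0.767). The ratio was 0.841 (0.730 to 0.969) for H1, 0.673 (0.597 to 0.757) for H2B, 0.638 (0.483 to 0.840) for H3 and 0.688 (0.544 to 0.868) for H4. H2A had 96 and 147 counts, with an interval of 0.459 to 0.781. All 5 classes were lower in replicate 1, but in H2B and H1 this rested largely on 1 gene each. Without Hist1h2bc the ratio of H2B was 0.810 (0.649 to 1.01), an interval that includes 1. Of the 379 and 414 counts of H1, Hist1h1c gave 332 and 369. Without Hist1h2bc and Hist1h1c the summed ratio of the family was 0.709 (0.631 to 0.796), so the difference of the family as a whole did not rest on these genes. With 1 library at each passage this difference has no replicate check. In bulk polyA-selected RNA, fewer cells in S phase, less RNA per cell and a smaller captured share of that RNA cannot be told apart.

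Single genes were compared by the log2 ratio of their scaled counts, replicate 1 over replicate 2. The 20 of the 64 that averaged 10 counts or more were taken. Among them, Hist1h4j, Hist1h2ae, Hist1h2bb and Hist1h3g had fewer than 10 counts in replicate 1. They passed the minimum only through replicate 2, the library in which they were higher. The median of these 20 was -0.63, against 0.02 over the 17788 genes that passed the same minimum. A ratio below 0 was found for 15 of the 20, against 48.7% of all genes. Beyond 2-fold, 4 of the 20 were lower in replicate 1, against 7.14% of all genes, and 0 of the 20 were higher, against 14.2%. Of the 4 lower genes, only Hist2h3c2 had at least 10 counts in both libraries. Most of the 20 had few counts, with 16 at a mean below 50. Among all genes with a mean of 10 to 50 counts, 17% were lower beyond 2-fold and 25.6% higher. The exact interval of the fold, which covers counting error only, lay below 1 for 8 of the 20 and above 1 for none, against 35.4% and 37.8% of all genes. With a mean below 50 counts it lay below 1 for 4 of 16 histone genes, against 17.8% of all genes at 10 to 50 counts, with 27.3% above 1. With a mean of 50 counts or more it lay below 1 for 4 of 4 histone genes, against 35.4% of all genes at any depth. The number of intervals below 1 over the 20 was thus near that of genes at large, while none lay above 1.

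The 4 genes beyond 2-fold came from 4 classes. Hist1h2bb, a gene of H2B, had 5 counts in replicate 1 and 21 in replicate 2, a log2 ratio of -1.99. Hist1h4j, of H4, had 9 and 28 counts, or -1.65. Hist1h2ae, of H2A, had 9 and 26 counts, or -1.55. Hist2h3c2, of H3, had 28 and 61 counts, or -1.22, with a fold of 0.422 (0.260 to 0.670). All 4 rest on few counts in replicate 1, and none of them has a mean of 50 or more.

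The genes with the most counts differed less. Hist1h2bc was lower in replicate 1 with a fold of 0.623 (0.540 to 0.718) and Hist1h1c with a fold of 0.827 (0.711 to 0.961). Hist1h4i had a fold of 0.619 (0.444 to 0.859) and Hist3h2a one of 0.573 (0.406 to 0.804). The interval included 1 for Hist2h2be, at 1.09 (0.664 to 1.80), for Hist3h2ba, at 0.961 (0.512 to 1.81), and for Hist1h2be, at 0.752 (0.435 to 1.29), and these depths could not show a difference of the size seen for the family.

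**Figure D4:**
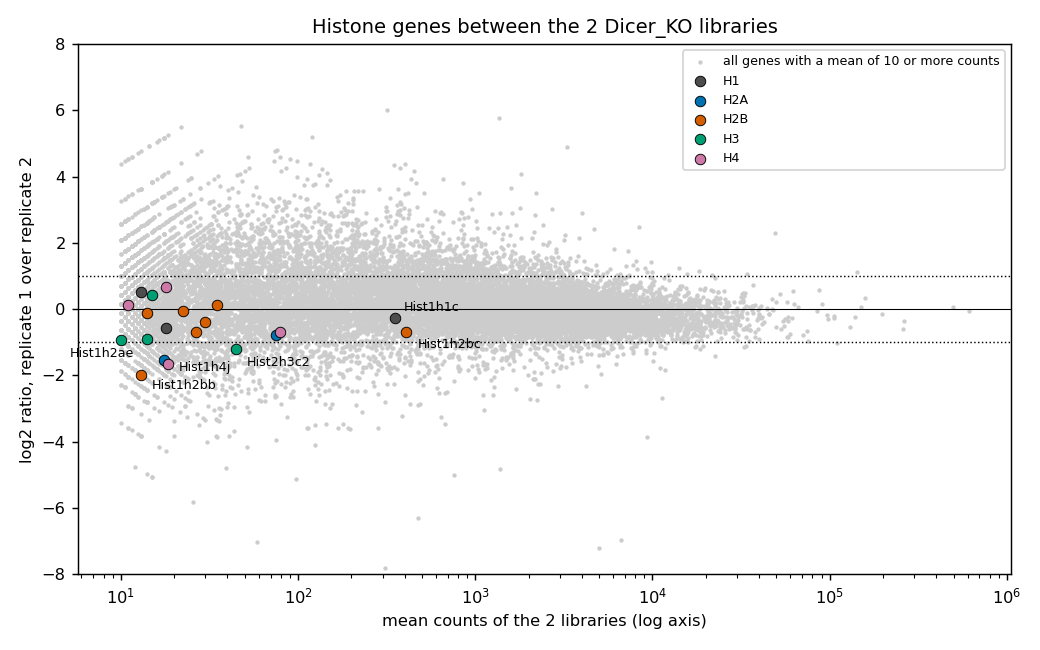
Log2 ratio of replicate 1 over replicate 2 after TMM scaling against the mean count (log axis), in grey for the 17788 genes that average 10 counts or more and in colour for the 20 histone genes among them, with dotted lines at 2-fold. Of the coloured points 15 lie below 0, and 4 of them lie below the lower dotted line.

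Over the 17788 genes compared, 48.7% had a ratio below 0, 7.14% were lower beyond 2-fold and 14.2% higher. Genes that act with the histone genes showed the following. Of 20 S-phase genes, 20 had a lower normalized count in replicate 1, with a median log2 ratio of -0.50 and a range of -1.33 to -0.10, and 1 of them, Rrm2, was beyond 2-fold. Of 15 histone chaperones, which hand histones to DNA, 14 were lower, with a median of -0.32, and 1, Asf1a, was beyond 2-fold at -1.52. The S-phase genes were thus lower in the same library as the histone genes, and their part in the difference was not tested. The 11 variants had a median of 0.18, with 4 of 11 lower and H2afy2 beyond 2-fold higher at 1.29. Set beside each other, the median was negative for the replication-dependent genes and positive for the variants.

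A list of genes of histone 3′ end formation, with others that act on histone genes or their mRNAs, was expressed in both libraries. The others include Npat, Upf1, Tut7, Mif4gd and Ints3. All 18 genes of the list had a mean of at least 381.5 counts, their median log2 ratio was -0.19, and 0 of 18 were beyond 2-fold in either direction. Among all genes 7.14% were lower and 14.2% higher beyond 2-fold, but these include 3474 genes at 10 to 50 counts. The exact interval of the fold excluded 1 for 14 of the 18, while among all genes it lay below 1 for 35.4% and above for 37.8%. Slbp, whose protein binds the stem-loop, had 2692 and 2593 counts, a fold of 0.954 (0.903 to 1.01). Lsm10 and Lsm11, subunits of the U7 particle, had 445 and 318 and 1105 and 624 counts. Zfp473, which also acts with U7, had 1482 and 2721, the lowest ratio of the list. Casp8ap2 (FLASH) and Npat, which work at the histone genes themselves, had 3401 and 3878 and 3117 and 3466 counts, and Eri1, an exonuclease that trims the stem-loop end, had 3162 and 2999. For 11 genes of ordinary cleavage and polyadenylation the median was -0.18, and 0 of 11 were beyond 2-fold.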

How the data were processed

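PolyA RNA of 2 Dicer_KO libraries was sequenced from both ends by the authors. Reads were trimmed with Trimmomatic and aligned to mm10 with STAR (version 2.4.2a) under settings that admit multiple hits. The authors then obtained raw counts for each gene of Ensembl release 78 with featureCounts (version 1.4.5-p1), ignoring reads where genes overlap, and deposited these counts unscaled. The protocol was reverse-stranded. The read length, the strand setting of the counting and the treatment of reads with several alignments are not given in the sources used here, so counts of near-identical histone genes are uncertain.

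Genes, lengths and transcripts came from GENCODE M21 (GRCm38), which is a later release than that used for counting and covers 42462 of the 43629 identifiers. Shared sequence was measured as the share of 100-base words of a gene's transcripts found in transcripts of any other gene on either strand. Other genes annotated over the same bases were included. Histone genes, gene lists and rules were chosen with earlier results of these data known. CPM used the total counts, and CPM per kb the summed length of all annotated exons. Replicate 2 was scaled to replicate 1 by TMM (edgeR 4.0.16, R 4.3.3) over all genes, and log2 ratios used a pseudocount of 1 and a minimum mean of 10 counts. Shares have exact Clopper-Pearson intervals and folds exact conditional binomial intervals (scipy 1.17.1), both at 95% and for counting error only. Labels give 1 group, so no model was fitted and no p-value computed. The steps were tested on simulated data. Total counts, raw counts, DESeq2 (1.42.0) size factors, a pseudocount of 0.1, other minimums and each library on its own were alternatives.

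Named genes are the 12 histone genes with the highest mean CPM, those beyond 2-fold, 3 known from testis, those without a stem-loop that have at least 10 counts, all 11 variants, 7 genes of the 3′ end list and Dicer1. Other genes named beside these, such as H2A and H2B partners, genes at 0, Rrm2, Asf1a and Krt7, were chosen after their values were seen.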

Additional observations from a re-analysis of the deposited data

How the results depend on the processing

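No paired analysis was possible because the 2 libraries form a single group. Over 14 results, 49 values were computed under alternatives, of which 37 counted as unchanged, 12 moved and 0 changed direction. With 2 libraries, leaving out either cannot move a mean beyond 1 SD, so it shows no stability. The family's summed level ranged from 28.4 to 36.9 CPM with a library left out and was 23.1 CPM without the H1 genes and 22.8 CPM without Hist1h2bc. The number of genes with at least 10 counts ranged from 16 to 22, and 51 genes had at least 1 count and 4 at least 50 in both libraries. Summed levels ranged from 9.09 to 9.96 CPM for H1, from 2.30 to 3.54 for H2A, from 11.7 to 16 for H2B, from 2.18 to 3.15 for H3, from 3.14 to 4.21 for H4 and from 1232 to 1431 for the variants. H2B was at 3.999 CPM without Hist1h2bc and the variants at 1129 CPM without H2afx. The median log2 ratio was -0.091 with no minimum count, where the genes beyond 2-fold numbered 3 higher and 9 lower in replicate 1, and with a mean of at least 50 counts 0 of 4 genes were lower beyond 2-fold. Total counts moved the median of all genes from 0.02 to 0.14 and that of the 20 histone genes from -0.63 to -0.51, so that their difference stayed at -0.65. The log2 ratio of the summed counts was -0.49, and -0.38 with total counts and -0.37 with raw counts, and the cause of these moves is the scaling itself. The sums without Hist1h2bc and Hist1h1c, without Hist1h2bc and without H2afx and the cut-offs of 50 and 200 bases past the stem-loop, which gave 25 and 17 genes in place of 22, were chosen after seeing the data. At these depths most single genes of the family hold too few counts to show a 2-fold difference.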

Other observations

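Annotated pseudogenes with histone symbols were counted as well. Hist1h2al, on chromosome 13, had 15 counts in replicate 1 and 6 in replicate 2. Hist1h2aj had 1 and 7 counts, and Hist3h2bb-ps had 0 and 0.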
